A study of Mus musculus with 16 samples.

Results

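Csrp3, Ankrd1, Ankrd2, Cmya1, Fhl1, Hspb7 and Tnfrsf12a are 7 genes of striated muscle known for their response to mechanical load, and their mRNAs were followed in gastrocnemius, a muscle of the calf, of mice on 2 diets. They were taken by gene name from the probes of a whole-genome microarray, as genes that were lower in cHF+F+ROSI than in cHF+ROSI mice and that moved together across the 16 mice. They were thus chosen by their measured difference between the diets and their co-variation, and both are given here as a description, without a test. Of 27745 gene names on the array these are 7, with 8 of its 41174 probes. All 8 were among the 19398 probes kept by the filter on background (mean signal at least 2 times the background in both channels). Cmya1 is now named Xirp1.

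Both groups were male C57BL/6N mice that from 3 months of age ate a corn-oil-based high-fat diet (cHF, lipids about 35% by weight) containing the insulin sensitizer rosiglitazone at 10 mg per kg diet. The intervention lasted 8 weeks. In the 8 cHF+ROSI mice nothing else was added, and in the 8 cHF+F+ROSI mice 15% of the dietary lipids was exchanged for a concentrate of n-3 LC-PUFA (46% DHA, 14% EPA). All of them were fasted for 10 h in the light phase, re-fed Chow overnight and killed in the morning, so the values describe the re-fed state after both diets. The mice were housed 2 per cage, and the labels do not say which mice shared a cage.

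Stretch of a muscle fibre is sensed in part at the Z-disc and along titin, the elastic protein that spans the sarcomere. LIM proteins and ankyrin repeat proteins are anchored there and can also enter the nucleus, and their genes are switched on by exercise, lengthening contractions, overload and injury. Small heat shock proteins protect the stretched cytoskeleton, and the receptor of the cytokine TWEAK appears on muscle that is damaged, denervated or freshly loaded.

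Each array held RNA of 1 mouse labelled with Cy5 and a common reference pool labelled with Cy3, and the value of a probe is the log2 ratio of Cy5 to Cy3 after background correction and loess. A ratio of 0 means the level of the pool. The median Cy5 signal of an array was 2.33 to 3.64 times its background, and the median Cy3 signal was 1.78 to 2.02 times. The 8 probes were far above that: their Cy5 signal was 38.2 to 6000 times the background, none was saturated and all were well above background on 16 of 16 arrays. Of 5 skeletal muscle markers 5 were measured. Of the defining markers of heart muscle, Nppa, Nppb and Tnni3 were too close to background to be kept. The arrays lay on 4 slides of 4, each slide scanned at a time of its own, with cHF+ROSI mice always at positions 1 and 3 and cHF+F+ROSI always at 2 and 4, so that position and diet cannot be told apart. In Cy3, the pool, 6 of the 7 genes differed between the arrays of the groups by -0.04 to 0.06 on the log2 scale. Fhl1 was the exception with 0.27 (SE 0.11), and its values below carry that difference.

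The cHF+F+ROSI mice had less mRNA of each of the 7 genes than the cHF+ROSI mice. The log2 difference ran from -0.92 for Csrp3 to -0.62 for Ankrd2 and Hspb7, and its median over the 7 genes was -0.73 against -0.0014 over all 19398 probes. In folds the genes were between 1.54 and 1.9 times lower. All 7 were at least 1.5-fold lower, as were 43 of all probes (0.222%). All 7 also met a call of limma's unadjusted p up to 0.05 together with a fold of at least 1.2, which 197 probes in this direction (1.02%) and 289 probes in either direction (1.49%) had. In the opposite direction it was 92 probes (0.474%). These counts restate how the genes were chosen. The difference with its SE, limma's moderated one, is given for each gene below, and in every gene the mice of both diets overlapped. In bulk muscle, a lower level can come from less mRNA per fibre or from fewer of the fibres that hold it, and these cannot be told apart.

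**Figure D1:**
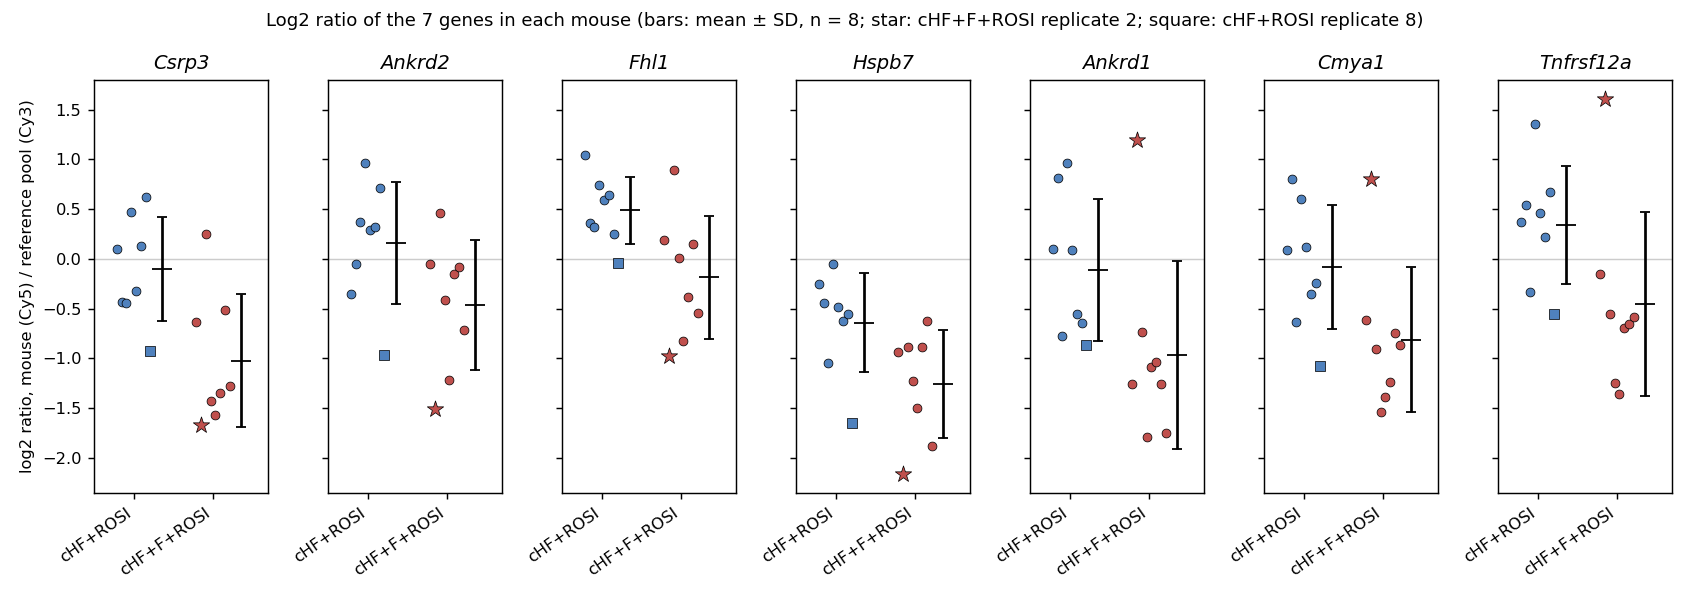
Log2 ratio of each gene to the reference pool (y axis) in 8 cHF+ROSI and 8 cHF+F+ROSI mice, 1 point per mouse, with mean ± SD beside the points. The star, cHF+F+ROSI replicate 2, is the lowest of its group for Csrp3, Ankrd2, Fhl1 and Hspb7 and the highest for Ankrd1, Cmya1 and Tnfrsf12a. The square, cHF+ROSI replicate 8, is the lowest cHF+ROSI mouse for all 7 genes.

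Among the LIM proteins, Csrp3 encodes the muscle LIM protein of the Z-disc. Its probe lies at chr7:48698714-48700628 on the minus strand (positions of all probes are those of the array files, on mm8). In the cHF+ROSI mice the log2 ratio was -0.93 at the lowest, -0.11 at the median and 0.63 at the highest, and in the cHF+F+ROSI mice it was -1.67, -1.31 and 0.25. Of the cHF+F+ROSI mice 5 of 8 lay below every cHF+ROSI mouse and replicate 3 lay among the higher cHF+ROSI mice. The means ± SD (n = 8) were -1.02 ± 0.66 and -0.10 ± 0.52, a difference of -0.92 (SE 0.27), or 1.9-fold. This was the fifth most negative difference of 19398 probes.

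Fhl1 encodes a LIM-only protein that binds titin and is abundant in skeletal muscle, and its probe lies at chrX:53140029-53140088 on the plus strand. The cHF+ROSI mice had -0.04, 0.48 and 1.05 (lowest, median and highest log2 ratio), and the cHF+F+ROSI mice -0.97, -0.19 and 0.89. Among the cHF+F+ROSI mice 4 were below every cHF+ROSI mouse, and 7 of 8 were below the cHF+ROSI mean. The means were -0.19 ± 0.61 and 0.49 ± 0.34, with a difference of -0.68 (SE 0.22), or 1.6-fold. In the Cy5 channel alone the difference was -0.41, and the remainder of the -0.68 came with the reference channel.

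The ankyrin repeat proteins Ankrd1 and Ankrd2 are close relatives that bind titin in the I-band. Ankrd1 (chr19:36177463-36177522, minus strand) is low in resting skeletal muscle and rises after stretch or damage, while Ankrd2 (chr19:42097387-42097446, plus strand) is typical of slow fibres. For Ankrd1 the cHF+ROSI mice spanned -0.87 to 0.96 with a median of -0.23, and the cHF+F+ROSI mice -1.79 to 1.2 with a median of -1.17. Below every cHF+ROSI mouse lay 6 of the 8, while replicate 2 at 1.2 exceeded all of them. The means were -0.96 ± 0.94 and -0.11 ± 0.71, a difference of -0.85 (SE 0.38), or 1.81-fold.

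For Ankrd2 the groups overlapped widely. The cHF+ROSI mice ran from -0.97 to 0.97 with a median of 0.31 and the cHF+F+ROSI mice from -1.51 to 0.46 with a median of -0.28. The means were -0.46 ± 0.65 and 0.16 ± 0.61 and differed by -0.62 (SE 0.28), or 1.54-fold. Here 2 of the 8 cHF+F+ROSI mice were below all cHF+ROSI mice, replicates 2 and 5.

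Cmya1 encodes Xin, an actin-binding protein of the myotendinous junction that is raised in regenerating fibres (chr9:119862804-119862863, minus strand). The cHF+ROSI mice had a lowest, median and highest log2 ratio of -1.07, -0.07 and 0.80. In the cHF+F+ROSI mice these were -1.54, -0.89 and 0.81. The highest mouse of each diet thus had nearly the same level, and 7 of 8 cHF+F+ROSI mice were below the cHF+ROSI mean. The difference of the means (-0.81 ± 0.73 and -0.08 ± 0.62) was -0.73 (SE 0.30), or 1.65-fold.

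Hspb7 encodes a small heat shock protein of heart and skeletal muscle that binds filamin C. It was the one member with repeated measurements: a probe at chr4:140696516-140696575 was printed in 10 spots of every array and another lay at chr4:140696075-140696134, both on the plus strand. Over the 10 spots of an array the log2 ratio had an SD of 0.02 to 0.09, and between mice of a diet the SD was 0.52, which is 11.3 times the mean SD of the spots. Over the 150 kept probes printed in this way the median of that quotient was 3.61, and 8 of them had a larger SD between mice than Hspb7. The spread between mice includes that between labellings and arrays, which cannot be told apart from it here. The cHF+ROSI mice had -1.65, -0.52 and -0.05 (lowest, median, highest) and the cHF+F+ROSI mice -2.16, -1.08 and -0.62. Above every cHF+F+ROSI mouse lay 5 of the 8 cHF+ROSI mice, and cHF+ROSI replicate 8 lay deep among the cHF+F+ROSI mice. The means were -1.26 ± 0.54 and -0.64 ± 0.50, with a difference of -0.62 (SE 0.24), or 1.54-fold. The second probe gave -0.50 (SE 0.19) and followed the first across the 16 mice with r = 0.921 after the group means were removed.

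Tnfrsf12a encodes Fn14, the receptor of TWEAK (chr17:23403401-23403460, minus strand). Among the cHF+ROSI mice the lowest, median and highest log2 ratios were -0.55, 0.42 and 1.36, and among the cHF+F+ROSI mice they were -1.36, -0.62 and 1.61. Of the cHF+F+ROSI mice 6 of 8 were below every cHF+ROSI mouse and replicate 2 was above every one. The means were -0.45 ± 0.92 and 0.35 ± 0.59, and the difference was -0.80 (SE 0.35), or 1.74-fold.

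On single slides, with 2 mice of each diet, the direction was kept in 27 of 28 cases. The exception was Tnfrsf12a on slide 1 (0.07), the slide that held cHF+F+ROSI replicate 2. The genes were chosen as lower in these same mice, and on a slide they share arrays. The cases are therefore no independent support for the direction. The median difference over the 7 genes was -0.50, -1.48, -0.83 and -0.30 on slides 1 to 4. Slide 4 held cHF+ROSI replicate 8, and Cmya1 there differed by only -0.08. Left out, cHF+F+ROSI replicate 2 changed the sizes in 2 ways: Ankrd1, Cmya1 and Tnfrsf12a moved to -1.16, -0.96 and -1.09, while Ankrd2, Fhl1 and Hspb7 shrank to -0.47, -0.56 and -0.49 and Csrp3 to -0.83. Without that mouse 4 of the 7 genes were at least 1.5-fold lower. Without cHF+ROSI replicate 8 all 7 differences were larger in size, between -0.75 for Fhl1 and -1.04 for Csrp3.

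**Figure D2:**
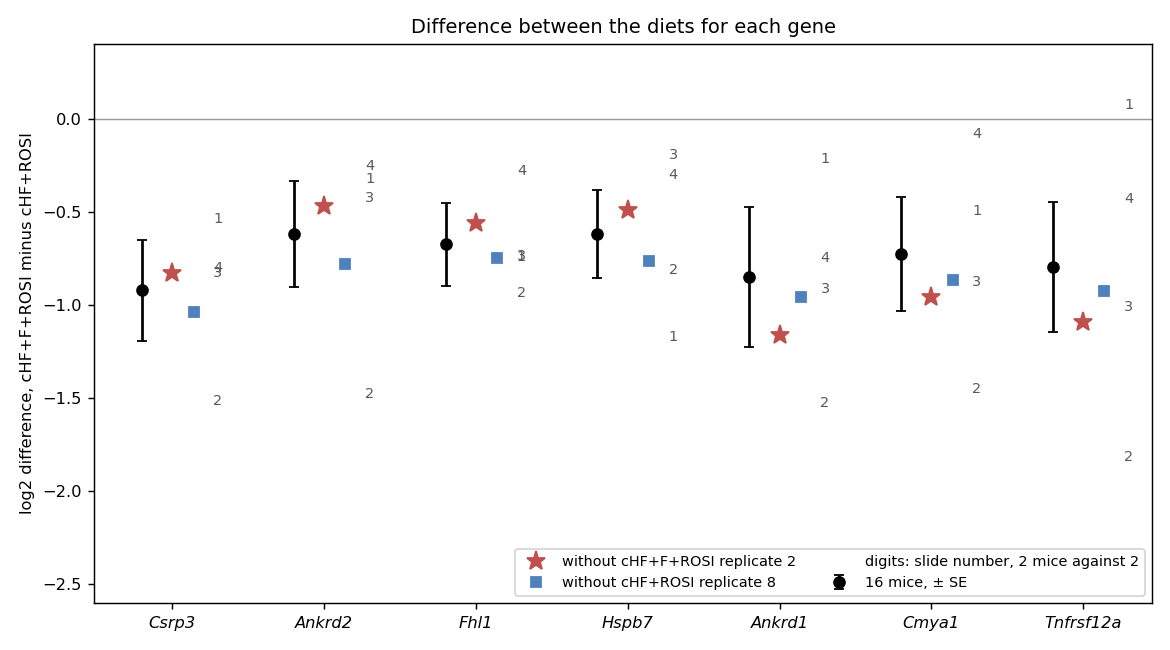
Log2 difference between the diets (y axis, cHF+F+ROSI minus cHF+ROSI) for each gene. Black points show 16 mice with limma's SE, stars and squares the same difference without 1 mouse, and grey digits the difference on each slide (2 mice against 2). All values but Tnfrsf12a on slide 1 (0.07) lie below 0, and the star lies lower than the black point for Ankrd1, Cmya1 and Tnfrsf12a and higher for the others.

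How the genes moved together was read from the deviation of each mouse from the mean of its diet, so that the difference between the diets does not enter. Over the 21 pairs of genes the mean r was 0.343, with a range from -0.153 to 0.919. The pairs fell into 2 sets, seen only once the values were in hand and given here as a description. Within Csrp3, Ankrd2, Fhl1 and Hspb7 the 6 pairs had r of 0.689 to 0.804 (mean 0.745). Within Ankrd1, Cmya1 and Tnfrsf12a the 3 pairs had r of 0.839 to 0.919 (mean 0.884). Between the sets the 12 pairs had r of -0.153 to 0.181 (mean 0.0064).

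The separation of the sets rested largely on cHF+F+ROSI replicate 2. That mouse had the lowest mean log2 ratio of its group over Csrp3, Ankrd2, Fhl1 and Hspb7 (-1.58, with -1.28 next) and the highest over Ankrd1, Cmya1 and Tnfrsf12a (1.21, with -0.67 next). Without it the mean r between the sets rose to 0.525 (range 0.334 to 0.709), while the means within them were 0.693 and 0.755. Within the 8 cHF+ROSI mice the 12 pairs between the sets had r of 0.257 to 0.90 (mean 0.585). That mean was 0.354 without replicate 8 (range -0.0765 to 0.879) and 0.464 without replicate 4 (range -0.0256 to 0.90). Within the 8 cHF+F+ROSI mice the same pairs had r of -0.504 to -0.086 with replicate 2 and 0.297 to 0.652 without it. The mean r within Ankrd1, Cmya1 and Tnfrsf12a in that diet fell from 0.905 to 0.431 (lowest 0.186) without replicate 2. In the other diet cHF+ROSI replicate 2 parted for some of the genes only. It was above its group mean for Ankrd1 and Cmya1 (by 0.92 and 0.89) and below it for Csrp3 and Ankrd2 (-0.33 and -0.21). Its deviation was -0.13 for Fhl1 and 0.20 for both Hspb7 and Tnfrsf12a. In the cHF+ROSI mice the first set leaned on replicate 8. Without it the mean r within Csrp3, Ankrd2, Fhl1 and Hspb7 fell to 0.255 among the 7 remaining mice of that diet, and over both diets it was 0.696.

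**Figure D3:**
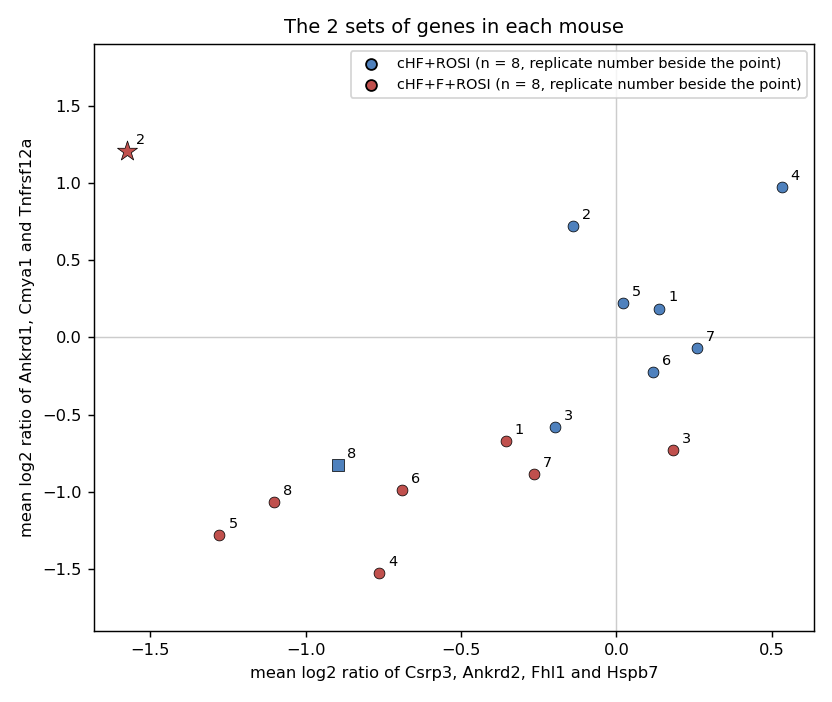
Mean log2 ratio of Csrp3, Ankrd2, Fhl1 and Hspb7 (x axis) and of Ankrd1, Cmya1 and Tnfrsf12a (y axis) in each of the 16 mice, with the replicate number beside each point. cHF+F+ROSI replicate 2 (star) lies alone at -1.58 and 1.21, and the other mice scatter around a rising diagonal.

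**Figure D4:**
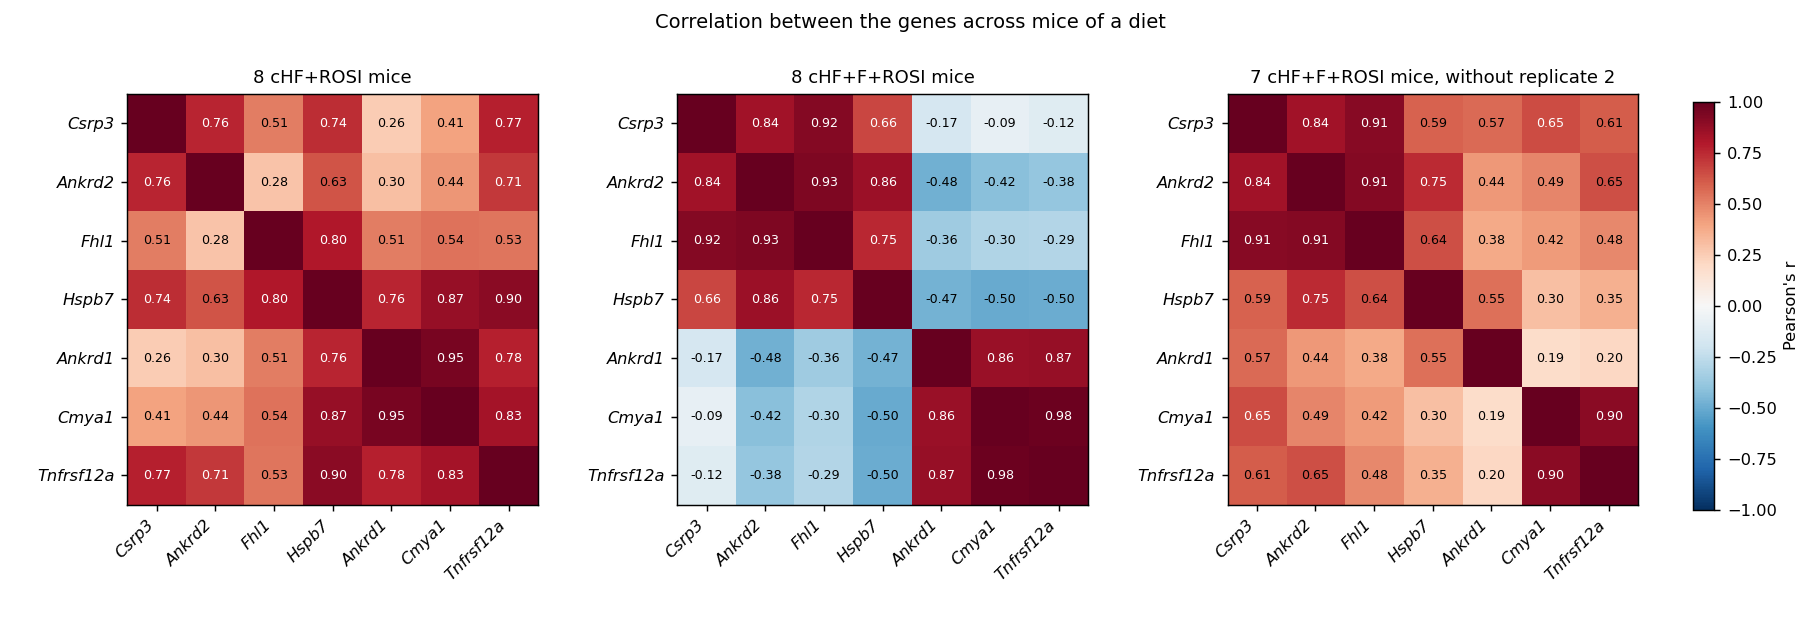
Pearson's r of each pair of genes across the 8 cHF+ROSI mice (left), the 8 cHF+F+ROSI mice (middle) and the 7 cHF+F+ROSI mice without replicate 2 (right). The block between the sets is 0.257 to 0.90 on the left, below 0 in the middle and 0.297 to 0.652 on the right.

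In cHF+F+ROSI replicate 2 other genes stood apart as well. The 10 measured genes of slow fibres, the contractile and calcium-handling genes of slow muscle, had a mean log2 ratio of -2.04 in it, and the next lowest mouse on that diet had -0.63. The 12 immediate early genes, transcription factors and stress genes induced within minutes of a stimulus, had a mean of 1.06, with 0.207 in the next highest. The 5 general skeletal muscle markers were at -0.17, with 0.081 in the next lowest. Among the cHF+ROSI mice replicate 8 had the lowest mean of the slow fibre genes (-1.33, with -0.64 next), beside its lowest levels of all 7 genes. The part of slow fibre content in the levels of the 7 genes was not tested.

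For these 2 sets the sequence around the start of transcription is shown for a pair of genes of each. The RefSeq promoter table used here held 6 of the 7 genes (8 start sites; Cmya1 was not analysed here), each with 250 bases before and 50 after the start, on GRCm38.p6. Capitals mark the MCAT element, the binding motif of TEAD factors (CATTCC, or GGAATG on the other strand), and the GC box of Sp factors (GGGCGG or CCGCCC).

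Csrp3, chr7:48848002-48848301, minus strand: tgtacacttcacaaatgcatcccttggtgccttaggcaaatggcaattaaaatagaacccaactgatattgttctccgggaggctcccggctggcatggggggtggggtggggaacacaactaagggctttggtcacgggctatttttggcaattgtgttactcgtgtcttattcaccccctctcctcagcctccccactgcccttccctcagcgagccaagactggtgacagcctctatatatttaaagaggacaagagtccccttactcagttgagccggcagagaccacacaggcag
Ankrd2, chr19:42035777-42036076, plus strand: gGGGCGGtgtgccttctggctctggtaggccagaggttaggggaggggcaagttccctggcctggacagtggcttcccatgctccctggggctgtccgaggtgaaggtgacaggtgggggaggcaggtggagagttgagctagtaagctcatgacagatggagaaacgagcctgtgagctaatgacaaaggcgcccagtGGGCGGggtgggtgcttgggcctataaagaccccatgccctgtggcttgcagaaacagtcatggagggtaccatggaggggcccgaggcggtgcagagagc
Ankrd1, chr19:36119795-36120094, minus strand: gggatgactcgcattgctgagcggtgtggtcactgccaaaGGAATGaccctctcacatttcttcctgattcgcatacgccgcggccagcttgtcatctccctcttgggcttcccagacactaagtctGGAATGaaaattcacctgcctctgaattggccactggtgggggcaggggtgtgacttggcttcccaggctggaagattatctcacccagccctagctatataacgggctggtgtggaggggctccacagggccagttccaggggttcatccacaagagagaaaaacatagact
Tnfrsf12a, chr17:23677400-23677699, minus strand: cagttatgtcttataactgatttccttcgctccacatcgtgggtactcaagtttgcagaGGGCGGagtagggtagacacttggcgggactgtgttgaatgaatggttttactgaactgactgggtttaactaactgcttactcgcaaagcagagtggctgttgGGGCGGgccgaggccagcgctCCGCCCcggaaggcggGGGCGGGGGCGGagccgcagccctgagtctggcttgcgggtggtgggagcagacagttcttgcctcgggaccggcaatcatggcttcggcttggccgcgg

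The Ankrd1 window holds the MCAT element at -210 to -205 and again at -123 to -118, counted with the start at 1 and the base before it at -1. The Hspb7 window holds it at 4 to 9. Of 32851 promoter windows of the same length in mouse, 14.7% hold an MCAT element on either strand. The GC box occurs 2 times in Ankrd2 and 5 times in Tnfrsf12a, and 35.7% of windows hold it. A CArG box, the motif of serum response factor, lies in the window of the first Fhl1 start at -102 to -93, and 1.63% of windows have one. The motif of MEF2 was in none of the 8 windows and is in 3.19% of all. The E-box of myogenic factors (CANNTG), which can lie over other motifs, was in 8 of 8 windows and is in 72.3% of all. The MCAT element and the GC box were thus each found in a gene of either set.

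Genes that work beside the 7 were read from lists that the choice of the 7 did not use. Of the 154 list genes 6 passed the call given above, all lower. Of all 19398 probes 1.49% passed it, and 1.02% were called lower. In limma 0 genes of the lists had an adjusted p under 0.05, which 3 of all 19398 probes had (0.0155%). At an unadjusted p under 0.05 there were 16 of the 154 list genes (10.4%) and 1447 of all probes (7.46%). Of 26 measured partners at titin and the Z-disc, 1 was lower, Csrp1, a LIM protein related to Csrp3, by a log2 difference of -0.42 (SE 0.10, limma adjusted p = 0.234). The others did not pass, among them Myoz2 with -0.50 (SE 0.29), and the median of the list was -0.09. Titin itself (Ttn) differed by 0.16 (SE 0.10), telethonin (Tcap) by -0.10 (SE 0.13) and Ankrd23, the third member of the family of Ankrd1 and Ankrd2, by -0.15 (SE 0.11). The Xin relative Xirp2 had 0.23 (SE 0.10, unadjusted p = 0.0355, fold under 1.2) and the LIM protein genes Fhl2 and Fhl3 had -0.22 (SE 0.19) and -0.10 (SE 0.15).

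Of the 7 small heat shock protein genes and partners (Hspb1, Hspb2, Hspb3, Hspb6, Hspb8, Cryab, Bag3), 0 were called, and at an unadjusted p under 0.05 also 0. The largest differences were -0.25 for Hspb1 (SE 0.18) and -0.12 for Cryab (SE 0.12), and the median was 0.02 where that of Hspb7 was -0.62. Of 16 measured genes of TWEAK and NF-kB signalling, downstream of Fn14, 0 were called, with 3 at an unadjusted p under 0.05 in limma (Birc2, Map3k14 and Rela, fold under 1.2), and the median was -0.07. Ccl2, a chemokine target, had -0.25 (SE 0.26) and Nfkbia, the inhibitor of NF-kB, -0.23 (SE 0.13). TWEAK itself (Tnfsf12) was too close to background to be kept.

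Of 19 measured genes of YAP, TEAD and SRF signalling, 1 was lower: Wwtr1, which encodes the co-activator TAZ, by -0.40 (SE 0.17, adjusted p = 0.621). The classical targets Ctgf and Cyr61 had -0.41 (SE 0.20) and -0.25 (SE 0.17). Of 13 measured genes of injury and regeneration, 1 was lower, Sln, an inhibitor of the calcium pump, by -0.58 (SE 0.27, adjusted p = 0.666). Embryonic myosin (Myh3) had -0.19 (SE 0.20) and myogenin (Myog) -0.34 (SE 0.16). Among 12 immediate early genes Jun was lower by -0.31 (SE 0.13, adjusted p = 0.616), and Atf3 had -0.77 (SE 0.45).

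Of 10 slow fibre genes 0 were called in limma, and 0 had an unadjusted p under 0.05. Their median was -0.38, with -0.54 for Myh7, the slow myosin (SE 0.58), -0.53 for Tnni1, the slow troponin I (SE 0.39), and 9 of 10 below 0. That median moved to -0.10 without cHF+F+ROSI replicate 2, to -0.19 and -0.60 without cHF+ROSI replicates 3 and 8, and to -0.11 with array quality weights. Of 10 fast fibre genes 0 were called likewise, with 0 at an unadjusted p under 0.05 and a median of -0.07. Myh2, the myosin of type IIa fibres, had -0.22 (SE 0.25) and Mylpf, the fast regulatory light chain, 0.17 (SE 0.08). Among markers of other cells, endothelial cells had 2 of 5 called lower (Cldn5 by -0.45, SE 0.14, and Kdr by -0.27, SE 0.12). Their limma adjusted p was 0.406 and 0.63. All 5 endothelial markers were below 0, and Cdh5 had -0.16 (SE 0.05, limma unadjusted p = 0.00683, fold under 1.2). The tendon (6), fibroblast (5), adipocyte (7), red blood cell (3), macrophage (6), smooth muscle (4) and nerve (4) lists had 0 calls each in limma, and of them only Lum of the fibroblast list had an unadjusted p under 0.05. The adipocyte markers had the most positive median (0.32, and 0.157 to 0.534 without 1 mouse). Of the 7, 5 were above 0, with 0.48 for Cfd (SE 0.40) and 0.44 for Cidec (SE 0.43). The other 2 were below 0, Lep with -0.20 (SE 0.29) and Fabp4 with -0.06 (SE 0.17). In the tendon list Fmod and Thbs4 had -0.25 and -0.23 (SE 0.24 and 0.22), in the fibroblast list Lum and Pdgfra -0.23 and 0.12 (SE 0.11 and 0.10), and in the nerve list S100b and Mbp -0.35 and -0.32 (SE 0.28 and 0.31). Among red blood cell markers Hbb-b1 and Hba-a1 had 0.24 and 0.19 (SE 0.25 and 0.20), among macrophage markers Mrc1 and Cd68 0.10 and -0.07 (SE 0.11 and 0.09), and among smooth muscle markers Cnn1 and Acta2 0.14 and 0.07 (SE 0.16 and 0.12). Of general skeletal muscle markers Mb and Tnni2 had -0.28 and -0.12 (SE 0.17 and 0.11), and of heart muscle markers Myh6 and Tnnt2, both also made in skeletal muscle, -0.39 and -0.22 (SE 0.40 and 0.08).

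Over the 154 probes of the lists, 6 were called lower and 0 higher in 16 mice. Without cHF+F+ROSI replicate 2 there were 14, all lower, where 1.58% of all probes were called and 1.08% called lower. They included Hspb1 (-0.38), Ctgf (-0.47), Cyr61 (-0.37), Thbs1 (-0.38), Myog (-0.42), Atf3 (-1.17), Junb (-0.39), Btg2 (-0.49), Pdlim3 (-0.26) and Tnnt2 (-0.27), which were not called with that mouse. Sln (-0.53, unadjusted p = 0.0816 in limma) and Kdr (-0.26, unadjusted p = 0.0535 in limma) were no longer called, at nearly the same differences. Still no adjusted p was under 0.05, the lowest being 0.0767 for Csrp1. Without cHF+ROSI replicate 8 there were 11 calls, 10 lower and 1 higher (Xirp2), where 1.97% of all probes were called. Without cHF+ROSI replicate 1 or cHF+F+ROSI replicate 8 there were 3 and 2, where 1.19% and 1.18% of all probes were called.

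Whether the 7 genes followed these lists across mice was also computed. The lists did not enter the choice of the 7, but the values by mouse did, so the p-values below are not independent of that choice. Each gene was correlated with the mean of each of 18 lists over the 16 deviations from the group means (126 relations), with 100000 permutations of the mice within diets, 2-sided, and adjustment over the 126. At an unadjusted p under 0.05 there were 20 relations, and at an adjusted p under 0.05 there were 4. Of these, 3 were with the small heat shock proteins. Their genes, Ankrd1, Cmya1 and Tnfrsf12a, moved together across the mice (r of 0.839 to 0.919), so these 3 are not separate results. Cmya1 had r = 0.877 (rho = 0.871, permutation p = 2e-05, adjusted p = 0.00252), Tnfrsf12a had r = 0.842 (rho = 0.80, permutation adjusted p = 0.00315) and Ankrd1 had r = 0.775 (rho = 0.659, permutation adjusted p = 0.0424). For rho the adjusted permutation p was 0.0113, 0.0239 and 0.361. With scale normalization r was 0.657, 0.445 and 0.575 for Cmya1, Tnfrsf12a and Ankrd1 (adjusted permutation p = 0.127, 0.238 and 0.148), and with Cy5 alone 0.778, 0.837 and 0.868 (adjusted permutation p = 0.0948 for each), so that both settings ended the calls. The direction was the same in both diets, with r of 0.899 and 0.849 for Cmya1 and 0.912 and 0.756 for Tnfrsf12a in the cHF+F+ROSI and cHF+ROSI mice. The list mean was not scaled by gene, so genes that vary more weigh more in it. Hspb1 of this list had r = 0.945, 0.895 and 0.812 with Cmya1, Tnfrsf12a and Ankrd1, and its part in these relations was not tested.

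Without the 2 mice farthest from the median of the list, r was 0.788, 0.718 and 0.553 for Cmya1, Tnfrsf12a and Ankrd1. The count of 4 fell to 2 without any 1 of cHF+ROSI replicates 2, 3, 7 and 8 and cHF+F+ROSI replicates 3 and 4. Without cHF+F+ROSI replicate 2 it fell to 0 of the 126: Cmya1 came to r = 0.827 (adjusted permutation p = 0.058) and Tnfrsf12a to r = 0.791 (adjusted permutation p = 0.075). Csrp3, Ankrd2, Fhl1 and Hspb7 had r of 0.211 to 0.273 with this list over 16 mice and 0.547, 0.693, 0.604 and 0.664 without that mouse, with adjusted permutation p of 0.208 to 0.318. The fourth relation was that of Ankrd1 with the immediate early genes, r = 0.845 (rho = 0.626, adjusted permutation p = 0.0438, and 0.361 for rho). It was 0.589 without the 2 mice farthest from the median of the list and 0.679 without cHF+F+ROSI replicate 2 (adjusted permutation p = 0.208).

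**Figure D5:**
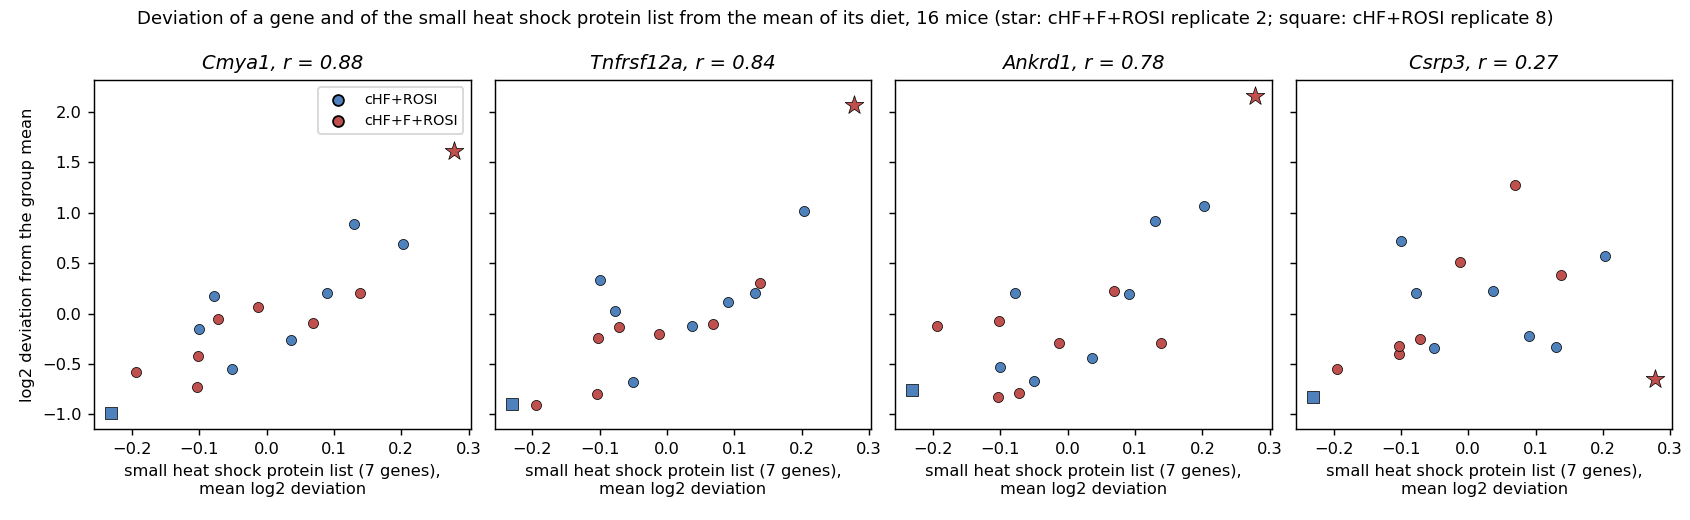
Deviation of Cmya1, Tnfrsf12a, Ankrd1 and Csrp3 from the mean of their diet (y axis, log2) against the mean deviation of the 7 small heat shock protein genes and partners (x axis, log2) in 16 mice. The points of the first 3 genes rise together with the list (r = 0.877, 0.842 and 0.775) and cHF+F+ROSI replicate 2 (star) is at the top right, while for Csrp3 it lies at the lower right.

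The slow fibre genes were related at an unadjusted p under 0.05 to Csrp3, Ankrd2, Fhl1 and Hspb7 (r = 0.57, 0.626, 0.624 and 0.582), none after adjustment (adjusted permutation p = 0.138 to 0.223). The relation of this list to Csrp3, Fhl1 and Hspb7 was already known from earlier results of these data, so its p-values are no independent test. Without the 2 mice farthest from the median of that list, r was 0.347, 0.139, 0.368 and -0.0591 for these genes in the same order. For Ankrd2 and Hspb7 the relation thus rests on those 2 mice together, and for Csrp3 and Fhl1 a smaller r remained. Without cHF+F+ROSI replicate 2 alone, r was 0.515, 0.471, 0.485 and 0.391 for Csrp3, Ankrd2, Fhl1 and Hspb7 (adjusted permutation p = 0.318, 0.496, 0.318 and 0.663). Ankrd1, Cmya1 and Tnfrsf12a had unadjusted p under 0.05 with the TWEAK and NF-kB genes (r = 0.608, 0.615 and 0.626, each with an adjusted permutation p of 0.138). The adipocyte markers had r of -0.56 with Ankrd2 and -0.635 with Hspb7 (adjusted permutation p = 0.225 and 0.138). Further relations at an unadjusted p under 0.05 had adjusted permutation p of 0.0937 to 0.296. They were those of YAP, TEAD and SRF genes with Ankrd1 (r = 0.696) and Cmya1 (0.669), and of titin and Z-disc partners with Ankrd2 (0.59) and Hspb7 (0.582). The others were those of immediate early genes with Cmya1 (0.775) and Tnfrsf12a (0.625), and of macrophage markers with Tnfrsf12a (0.492). No relation to the tendon, fibroblast, red blood cell, endothelial, smooth muscle or nerve markers had an unadjusted p under 0.05.

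Among all 19310 probes with a value on every array, the genes whose mouse-to-mouse pattern was most like that of Csrp3 were Myh10 (r = 0.847), Ap1g1 (0.83), 2900073G15Rik (0.814), Fgf1 (0.807), Egln3 (0.805), Ablim1 (0.801), Ramp3 (0.783), 3110057O12Rik (0.778), Lrrc52 (0.767) and Stau2 (0.763), over 16 mice with group means removed. Myh10 encodes a non-muscle myosin heavy chain, Egln3 a prolyl hydroxylase of the oxygen-sensing pathway and Ablim1 an actin-binding LIM protein. These values held without cHF+F+ROSI replicate 2 (0.739 to 0.835). Ankrd2 ranked 6 and Fhl1 8 among the 19309 other probes ordered by r with Csrp3, and Hspb7 ranked 41. For Ankrd1 the probe of Cmya1 ranked 3 and that of Tnfrsf12a 14.

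The nearest neighbours of the other genes were in part shared between them or with Csrp3. Ankrd1 was followed most closely by Kbtbd5 (r = 0.92), Srxn1 (0.896), which repairs oxidised peroxiredoxins, and Hbegf (0.889), a growth factor. Cmya1 was followed by Hspb1 (0.945), the small heat shock protein of the list above, Atf3 (0.906) and Kbtbd5 (0.898). Tnfrsf12a was followed by Tubb6 (0.946), a tubulin, Abra (0.903), an activator of SRF signalling, and Hspb1 (0.895). For Ankrd2 these were Egln3 (0.896), Adprhl1 (0.888) and Myh10 (0.875), and for Fhl1 they were Gbe1 (0.848), the glycogen branching enzyme, Myom3 (0.845), an M-band protein, and Smtnl1 (0.837). Hspb7 had Lmna (0.912), which encodes the lamins A and C of the nuclear envelope, Twf2 (0.876) and Mylc2b (0.873). Without cHF+F+ROSI replicate 2 the r of these neighbours ran from 0.738 (Hbegf with Ankrd1) to 0.912 (Hspb1 with Cmya1).

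Ordered by the mean r over all 7 genes, the first 10 outside them were Lmcd1 (0.596), Cryab (0.575), Stau2 (0.536), Flnc (0.524), Dnaja4 (0.52), 2900073G15Rik (0.519), Fgf1 (0.511), ENSMUST00000091560 (0.51), Lmna (0.502) and Myh3 (0.50). Lmcd1 encodes a LIM protein of muscle, Cryab the small heat shock protein alpha-B-crystallin, Flnc filamin C, the actin cross-linker at the Z-disc, and Dnaja4 a co-chaperone of Hsp70. The lowest were Ces3 (-0.511), a carboxylesterase, Glo1 (-0.494) and Ybx2 (-0.479). Without cHF+F+ROSI replicate 2 the mean r of Lmcd1, Cryab and Flnc was 0.731, 0.719 and 0.655. For a gene with several probes, these orders took the probe with the highest r (for the lowest genes, the lowest r). Lmna thus came here from another probe than the one nearest to Hspb7, with r = 0.389 to Hspb7. All these values are descriptions over points that share their arrays.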

How the data were processed

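Gastrocnemius RNA of 16 mice was hybridised to 16 two-colour Agilent arrays (Cy5, 1 mouse; Cy3, a common pool; no dye swap). The deposited scanner files hold the intensity of each spot as the authors' Feature Extraction software wrote it (10.5.1.1 per the file headers, 10.5.5.1 per the submitters' processing notes). A further deposited table by the authors holds normalized log2 values, found here to run as Cy5 over Cy3 with a median of 9.521 in every column; it was used as an alternative. The centring of that table is not given in the sources used here.

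Here median signals were background-corrected (normexp, offset 50), control spots removed, probes with a mean signal at least 2 times background in both channels kept (19398 of 41174), outlier-flagged spots set to missing, loess applied within arrays and spots of a probe averaged. Plain subtraction, other scalings or the brightness filter could change low values. Groups came from the labels and their replicates are separate mice. limma 3.58.1 in R 4.3.3 compared 8 with 8 mice, with Benjamini-Hochberg adjustment over the kept probes. A call needed an unadjusted p of 0.05 or less and a fold of 1.2 or more. For a gene with several probes the brightest is given. Among the nearest genes, which leave out the 7, it is instead the probe with the highest r, or for the lowest genes the lowest r. Correlations used deviations from group means, and relations to lists 100000 permutations within diets. Genes named were the 7, the called genes of a list (or else the 2 with the largest difference), the 10 nearest to Csrp3, the 10 highest and 3 lowest by mean r, and the called genes without a named mouse. Ttn, Tcap, Ankrd23, Xirp2, Fhl2, Fhl3, Myoz2, Ctgf, Cyr61, Myh3, Myog, Atf3, Lep, Fabp4, genes at an unadjusted p under 0.05 and the first 3 neighbours of each gene were chosen after their values were seen. The scripts were tested on simulated data. The number of arrays limits the precision. The members and lists were chosen with earlier results of these data known. Promoter sequences are RefSeq's, on GRCm38.p6, and probe positions are those of the files, on mm8.

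Alternatives were other background corrections, scalings and filters, array weights, slide or replicate number as a block, the methods' t-test, the authors' table and leaving out each mouse.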

Additional observations from a re-analysis of the deposited data

Results flagged for a closer look

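Of 58 sets of 8 values examined, 10 had a highest or lowest mouse far from the next. The gap was too large a part of the range of its group by Dixon's limit for 8 values. Chance gives about 1 in 20 for a single set. The sets overlap, since genes that move together and means over them, some formed after the values were seen, were all examined. The 10 are thus not separate observations. In 8 of the 10 the mouse was cHF+F+ROSI replicate 2. It was the highest of its group for Ankrd1 (log2 ratio 1.2), Cmya1 (0.807), Tnfrsf12a (1.61) and the mean of these genes (1.21), and for the mean of the immediate early genes (1.06). It was the lowest for the means of the slow fibre genes (-2.04), the fast fibre genes (0.245, with 0.391 next) and the skeletal muscle markers (-0.17). The other 2 values were the mean of the immediate early genes in cHF+ROSI replicate 2 (1.08, with 0.421 next) and that of the red blood cell markers in cHF+F+ROSI replicate 6 (1.19, with 0.0621 next).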

How the results depend on the processing

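Each of the 7 genes was lower in cHF+F+ROSI under 28 of 28 alternatives (196 of 196 values). The genes were chosen as lower in these same arrays, so this count is no independent support. With slide or replicate number as a block, the differences equalled those of the main fit. At least 1.5-fold lower were 7 genes, 4 with array quality weights, 5 with scale normalization or Cy5 alone, 6 in the authors' table and 4 to 7 without 1 mouse. The probes called, 289, became 826 with processed signals, 443 with median centring, 152 with scale normalization, 473 with Cy5 alone, 686 in the authors' table and 228 to 428 without 1 mouse. Probes at limma's adjusted p under 0.05, 3, became 14 without background correction and with array weights, 19 with processed signals, 1 with median centring, 8 with Cy5 alone, 10 in the authors' table, 0 with scale normalization and 3 to 5 without 1 mouse. With the replicate block 0 probes had an adjusted p under 0.05 and 310 were called; same-numbered mice correlated at -0.338 to 0.727, so the numbers do not pair the mice, and 2 of 8 correlated best with their own number. The list genes called, 6, became 0 with scale normalization, where the Wwtr1 log2 difference turned to 0.00798, and 2 to 14 without 1 mouse. The mean r between the 2 sets, 0.0064, became 0.365 with scale normalization, 0.274 with group means kept and -0.171 to 0.525 without 1 mouse. Within Csrp3, Ankrd2, Fhl1 and Hspb7 it was 0.37, 0.818 and 0.693 to 0.792, and within Ankrd1, Cmya1 and Tnfrsf12a 0.755 to 0.906 without 1 mouse. Relations at an adjusted p under 0.05, 4, became 2 with median centring or slide means removed, 0 with scale normalization or Cy5 alone, 11 with group means kept and 0 to 4 without 1 mouse. The cause of these changes was not tested. The authors' table was not run for co-variation.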
